A study of Homo sapiens with 15 samples.

Results

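RNA levels of 10 genes of Toll-like receptor (TLR) signaling were compared in 3 human AML cell lines with or without RNF5 knockdown (RNF5-KD). The genes were chosen by symbol, and each matched 1 of the 57820 gene identifiers in the deposited files. They comprise the surface lipopeptide receptors TLR1, TLR2 and TLR6, the lipopolysaccharide (LPS) receptor TLR4 with its partners CD14 and LY96, the endosomal RNA receptor TLR8, the adaptor MYD88, and the IRAK family members IRAK1 and IRAK3. MOLM-13, U937 and HL-60 are established myeloid lines, of monocytic character in the case of MOLM-13 and U937 and promyelocytic in the case of HL-60. Cells carried either the pLKO vector as control or an shRNA against RNF5 (shRNF5), an ER-anchored ubiquitin ligase. The 15 libraries formed 6 groups, with 3 pLKO and 2 shRNF5 libraries of MOLM-13, 2 of each construct in U937, and 3 of each in HL-60. The RNA was collected 7 days after knockdown according to the sample protocol and 5 days according to the series design. The labels do not say which hairpin was used or whether libraries came from separate cultures, so the p-values measure the spread between these libraries, which may be technical.

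All values are normalized read counts, which the authors scaled within each line and rounded. A gene below their expression filter in a line is listed at 0 there. Fold changes are shRNF5 over pLKO on the log2(value + 1) scale, which understates changes of low genes. A gene was called changed at a limma adjusted p under 0.1 (Benjamini-Hochberg, over all genes tested in the line) together with an absolute log2 fold change over 0.4. Estimated depth ranged from 9700000 to 63800000 counted reads per library. In MOLM-13 the constructs differed in depth, at 9700000 to 15300000 in the controls and 24400000 to 63800000 after RNF5-KD. RNF5 itself measured 1223, 1017 and 1020 against 76 and 81 after RNF5-KD in MOLM-13, 648 and 843 against 46 and 74 in U937, and 506, 689 and 545 against 37, 133 and 43 in HL-60. No shRNF5 value reached its controls, with log2 fold changes of -3.77 (MOLM-13), -3.64 (U937) and -3.25 (HL-60) (limma adjusted p = 0.000336, 0.00287 and 0.00125). Of 14 myeloid markers, MOLM-13 and HL-60 each had 12 above 0 and U937 had 13; the macrophage marker CD68 was listed at 0 in every library, CEBPE in MOLM-13 and CSF1R in HL-60. The T-cell markers CD3D, CD3E and CD3G and all 7 erythroid and megakaryocytic markers were listed at 0 throughout. Of 8 lymphoid and 7 epithelial and fibroblast markers at most 3 and 2 were above 0 in a line. Those above 0 were not all low. In MOLM-13 the B-cell factor PAX5 measured 925 to 1191 with pLKO and 1055 to 1275 with shRNF5. The keratins KRT8 and KRT18 there summed to 451 to 750 and 769 to 853.

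Toll-like receptors recognize conserved microbial molecules and are characteristic of monocytes, macrophages and granulocytes. Ligand binding brings receptor tails together, and MYD88 then couples most of these receptors to IRAK kinases. The active IRAK kinases pass the signal to the ubiquitin ligase TRAF6, the TAK1 kinase complex and the IKK complex, which releases NF-kappaB to induce cytokine genes. A second branch through the adaptor TRIF leads to interferon genes. In blood cells, expression of several receptors rises with myeloid maturation, and the ETS factor PU.1 is a well known regulator of myeloid genes.

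MYD88 and TLR4 were the genes with called changes, so their promoter matches to the PU.1 core and the interferon response element are shown. Sequences are from RefSeq on GRCh38.p14, each is 30 bases on the sense strand of the gene, and capitals mark the match named beside it. The 250 bases before the start site of 8 of the 10 genes were searched on both strands; TLR1 and LY96 were not searched. The first MYD88 window (chr3:38138590-38138619, plus strand) holds GAAANNGAA, the letters of an interferon response element, 61 to 53 bases before the start.
MYD88, interferon response element: gcgcttctcgGAAAGCGAAagccggcgggg
The second (chr3:38138631-38138660, plus strand) holds the PU.1 core GAGGAAG, 18 to 12 bases before the start.
MYD88, PU.1 core: ccgcaggagaaaGAGGAAGcgctggcagac
The TLR4 promoter held 4 matches to the same core, 1 as written and 3 as its reverse complement, in windows at chr9:117704352-117704381, chr9:117704292-117704321, chr9:117704220-117704249 and chr9:117704167-117704196 (plus strand).
TLR4, 40 to 34 bases before the start: tggggcggctcGAGGAAGagaagacaccag
TLR4, 100 to 94 bases before the start: tgccgctttcaCTTCCTCtcaccctttagc
TLR4, 172 to 166 bases before the start: tcttcttctaaCTTCCTCtcctgtgacaaa
TLR4, 225 to 219 bases before the start: aagccaactagCTTCCTCttgctgtttctt
The PU.1 core was found in 4 of the 8 promoters searched (TLR4, TLR6, CD14 and MYD88), against 11.2% of 35116 promoters, and the interferon response element in 2 (MYD88 and TLR8), against 6.88%. The AP-1 site TGANTCA was found in CD14 alone (6.57% of the 35116 promoters) and the C/EBP site TTGCNNAA in TLR8 alone (9.05%). The GC box GGGCGG was found in 5 (42.6%), while the NF-kappaB site GGGANTTTC (1.12%) and the TATA box TATAAA (10.7%) had no match in the 8. MYD88 held 4 GC box matches and TLR4 held 1, which are not marked; none overlaps a match in capitals, and that of TLR4 lies 49 to 44 bases before the start, in lower case in the first TLR4 window. These matches describe letters only, not bound sites.

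**Figure D1:**
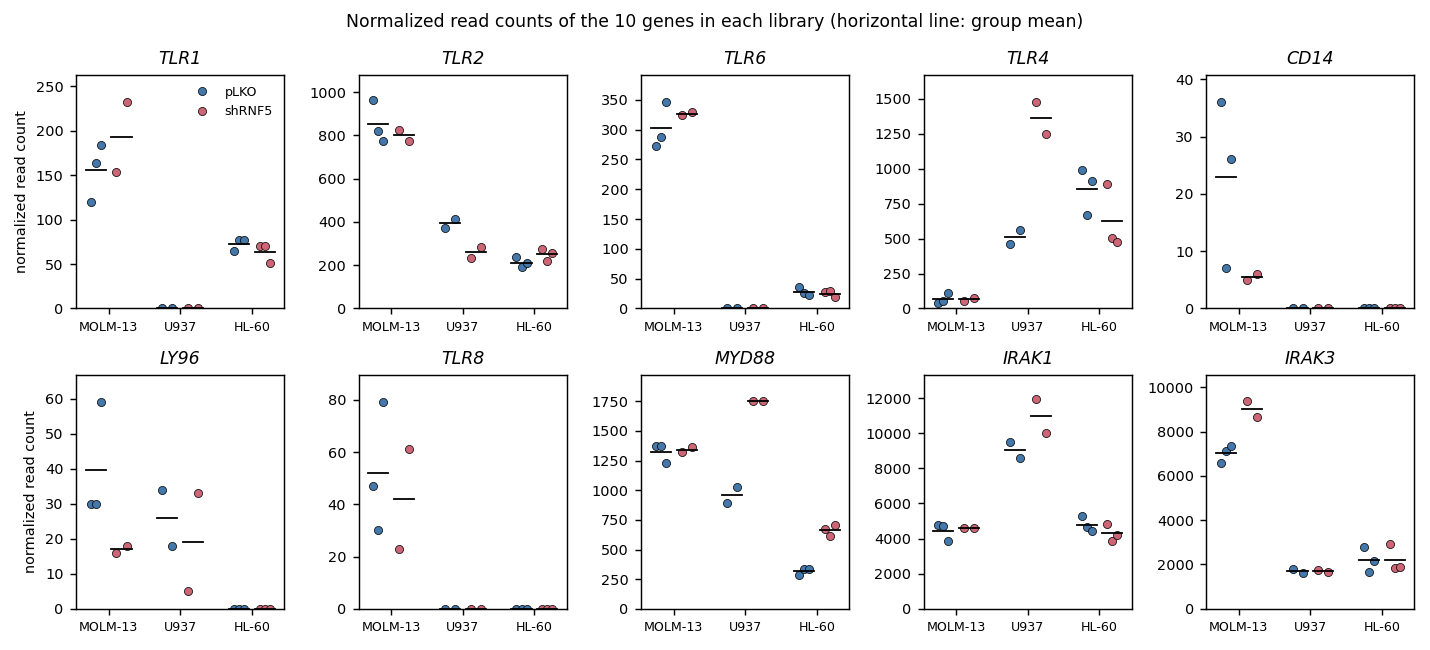
Normalized read count of each of the 10 genes (vertical axis, from 0, scaled per gene) in every library of the 3 lines, with pLKO in blue, shRNF5 in red and a horizontal line at the group mean. TLR4 in U937 and MYD88 in U937 and HL-60 stand clear of their controls, while points at 0 are genes below the authors' filter in that line.

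Among the lipopeptide receptors, no gene was called changed in any line. TLR2 pairs with TLR1 or TLR6, and the partner sets the type of lipopeptide that is recognized. TLR2 (chr4:154605222-154627412 on GRCh37, the build of the files, plus strand) measured 371 and 415 in the U937 pLKO libraries and 235 and 285 in the shRNF5 libraries. Both shRNF5 values were below both controls, at a log2 fold change of -0.60 ± 0.31 (SE), and the limma adjusted p was 0.234. A fit of all 15 libraries together, with 1 shared estimate of the spread, called this fall (limma adjusted p = 0.0284). That fit called 4977 of 14906 genes in U937, against 2062 of 13165 in the line's own fit. In MOLM-13 TLR2 measured 963, 821 and 776 with pLKO and 826 and 775 with shRNF5, and in HL-60 236, 193 and 208 against 273, 220 and 258. The constructs overlapped in both of these lines (log2 fold change -0.09 and 0.24, limma adjusted p = 0.816 and 0.334).

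TLR1 and TLR6 (chr4:38792298-38858438 and chr4:38824518-38858438 on GRCh37, minus strand) are close paralogs whose annotated genes overlap on the same strand, so reads could be split between them and their values are uncertain. Both were listed at 0 in the 4 U937 libraries. TLR1 measured 120, 164 and 184 with pLKO and 153 and 232 with shRNF5 in MOLM-13, and 65, 77 and 77 against 70, 70 and 51 in HL-60. TLR6 measured 272, 288 and 346 against 324 and 330 in MOLM-13, and 36, 26 and 22 against 27, 29 and 19 in HL-60. The constructs overlapped for both genes in both lines, with log2 fold changes from -0.21 to 0.29 and limma adjusted p from 0.558 to 0.780.

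The LPS receptor TLR4 rose in U937 and in no other line. TLR4 (chr9:120466453-120487013 on GRCh37, plus strand) measured 460 and 558 in the U937 pLKO libraries and 1478 and 1247 in the shRNF5 libraries. Every shRNF5 value was more than double the highest control, and the mean went from 509 ± 69.3 to 1362 ± 163 (SD, n = 2 each), a ratio of 2.68. The log2 fold change was 1.42 ± 0.26 (SE; 95% interval 0.84 to 2.0; limma adjusted p = 0.0206). In U937, 6.92% of 13165 genes tested were called higher and 8.74% lower. The call was lost without pLKO replicate 2, without shRNF5 replicate 1 and without shRNF5 replicate 3 (limma adjusted p = 0.256, 0.538 and 0.150). Those fits, in which the lone library is assumed to vary like the other group, called 0, 0 and 6 genes in all, and the TLR4 log2 fold change stayed between 1.28 and 1.56 whichever of the 4 libraries was removed.

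In HL-60, TLR4 measured 991, 668 and 909 with pLKO and 892, 504 and 473 with shRNF5. The 2 lowest values were shRNF5 libraries, but shRNF5 replicate 1 lay among the controls, so the groups overlapped. The log2 fold change was -0.50 ± 0.24 (SE; 95% interval -1.02 to 0.02; limma adjusted p = 0.158). The fall was called without shRNF5 replicate 1 (-0.79, limma adjusted p = 0.0184), without pLKO replicate 2 (-0.67, limma adjusted p = 0.0781) and when the replicate number entered as a block (limma adjusted p = 0.0477). In MOLM-13, where TLR4 is low, it measured 38, 51 and 108 with pLKO and 55 and 75 with shRNF5. The MOLM-13 values overlapped, and the 95% interval of the log2 fold change, -0.95 to 1.17, was wide.

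CD14 and LY96 (the coreceptor that hands LPS to TLR4 and the secreted partner that binds it) were low where they were measured. CD14 (chr5:140011313-140013285 on GRCh37, minus strand) was above 0 in MOLM-13 alone, at 36, 7 and 26 with pLKO and 5 and 6 with shRNF5. Both shRNF5 values were below the lowest control, and the log2 fold change was -1.63 ± 0.74 (SE; 95% interval -3.33 to 0.08; limma adjusted p = 0.311). About 19, 4 and 10 reads stood behind the control values and 13 and 6 behind the shRNF5 values, so the deeper shRNF5 libraries gave lower values from similar numbers of reads. The part of depth in this difference was not tested. The shared fit over 15 libraries called the fall (limma adjusted p = 0.0769). CD14 was listed at 0 in every U937 and HL-60 library, which lowers the spread that this fit estimates. That call therefore adds nothing to the fit of MOLM-13 alone.

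LY96 measured 30, 30 and 59 with pLKO and 16 and 18 with shRNF5 in MOLM-13. Both shRNF5 values lay below the controls, with a log2 fold change of -1.10 ± 0.46 (SE) and a limma adjusted p of 0.275. About 16 to 23 reads stood behind the pLKO values and 40 and 18 behind the shRNF5 values. In U937 LY96 measured 34 and 18 with pLKO and 5 and 33 with shRNF5, which overlapped, and in HL-60 it was listed at 0. HL-60 thus had TLR4 values of 473 to 991 with both partners listed at 0, and U937 had TLR4 with CD14 listed at 0.

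TLR8, which senses single-stranded RNA in endosomes, was above 0 in MOLM-13 alone. It measured 47, 30 and 79 with pLKO and 23 and 61 with shRNF5. The constructs overlapped (log2 fold change -0.35 ± 0.54 SE, limma adjusted p = 0.773), and a noncoding gene, TLR8-AS1, overlaps TLR8 on the opposite strand.

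MYD88, the adaptor shared by nearly all of these receptors, rose in HL-60 and U937 and was not called in MOLM-13. In HL-60, MYD88 (chr3:38180043-38184515 on GRCh37, plus strand) measured 282, 336 and 334 with pLKO and 674, 614 and 705 with shRNF5. The lowest shRNF5 value was far above the highest control, and the mean went from 317 ± 30.6 to 664 ± 46.3 (SD, n = 3 each), a ratio of 2.09. The log2 fold change was 1.07 ± 0.14 (SE; 95% interval 0.76 to 1.37; limma adjusted p = 0.00157). The call held without each of the 6 libraries in turn, with log2 fold changes of 0.98 to 1.12. In HL-60, 13.6% of 12570 genes tested were called higher and 12.3% lower.

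Myeloid markers moved in HL-60 as well. Of the 12 tested, 6 rose (MPO, LYZ, PTPRC, ITGB2, TYROBP and FCER1G) and 1 fell (CD33), and the summed marker value was 119473 to 144604 with pLKO and 156783 to 228150 with shRNF5. Most of this sum was MPO, at 105563 to 130372 with pLKO and 141317 to 207430 with shRNF5, and the other 13 listed markers summed to 13696 to 14232 and 15466 to 20720. The part of these markers in the MYD88 change was not tested. In bulk RNA, more RNA per cell and more cells of one state cannot be told apart.

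In U937, MYD88 measured 892 and 1027 with pLKO and 1749 and 1754 with shRNF5. The shRNF5 libraries were nearly identical and both above the controls, and the mean went from 959.5 ± 95.5 to 1752 ± 3.54 (SD, n = 2 each), a ratio of 1.82. The log2 fold change was 0.87 ± 0.24 (SE; 95% interval 0.34 to 1.40; limma adjusted p = 0.0562). The call was lost without pLKO replicate 2, shRNF5 replicate 1 or shRNF5 replicate 3 (limma adjusted p = 0.256, 0.605 and 0.301) and without a mean-variance trend (limma adjusted p = 0.148). The summed myeloid marker value was 34724 to 40927 with pLKO and 33011 to 40819 with shRNF5 in this line. Of 13 markers tested 1 rose (FCER1G) and 1 fell (CSF3R), against 6.92% and 8.74% of all genes tested.

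In MOLM-13, MYD88 measured 1372, 1376 and 1232 with pLKO and 1321 and 1365 with shRNF5. The shRNF5 values lay inside the control range, and the log2 fold change was 0.02 ± 0.14 (SE; 95% interval -0.31 to 0.34; limma adjusted p = 0.954).

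The IRAK family members were not called changed in any line. IRAK1 (chrX:153275957-153285353 on GRCh37, minus strand), a kinase that MYD88 recruits, measured 9522 and 8574 with pLKO and 11928 and 10015 with shRNF5 in U937. Both shRNF5 values were above both controls, but the log2 fold change of 0.27 ± 0.25 (SE) was close to its error (limma adjusted p = 0.503). IRAK1 measured 4757, 4695 and 3853 against 4573 and 4615 in MOLM-13, and 5296, 4633 and 4416 against 4818, 3836 and 4219 in HL-60. The constructs overlapped in both lines, with log2 fold changes of 0.06 and -0.16.

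IRAK3 (chr12:66582975-66648402 on GRCh37, plus strand), which lacks kinase activity and restrains the pathway, measured 6590, 7135 and 7344 with pLKO and 9389 and 8672 with shRNF5 in MOLM-13. Both shRNF5 values were above all controls, by a ratio of means of 1.29, and the log2 fold change was 0.36 ± 0.13 (SE; 95% interval 0.07 to 0.66; limma adjusted p = 0.227). IRAK3 measured 1793 and 1594 against 1750 and 1652 in U937, and 2772, 1657 and 2156 against 2918, 1825 and 1893 in HL-60. Both of these differences were 0.01 on the log2 scale, with 95% intervals of -0.51 to 0.53 and -0.46 to 0.48. A pseudogene, RBMS1P1, and a noncoding gene, RP11-335I12.2, lie within IRAK3 on the opposite strand.

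**Figure D2:**
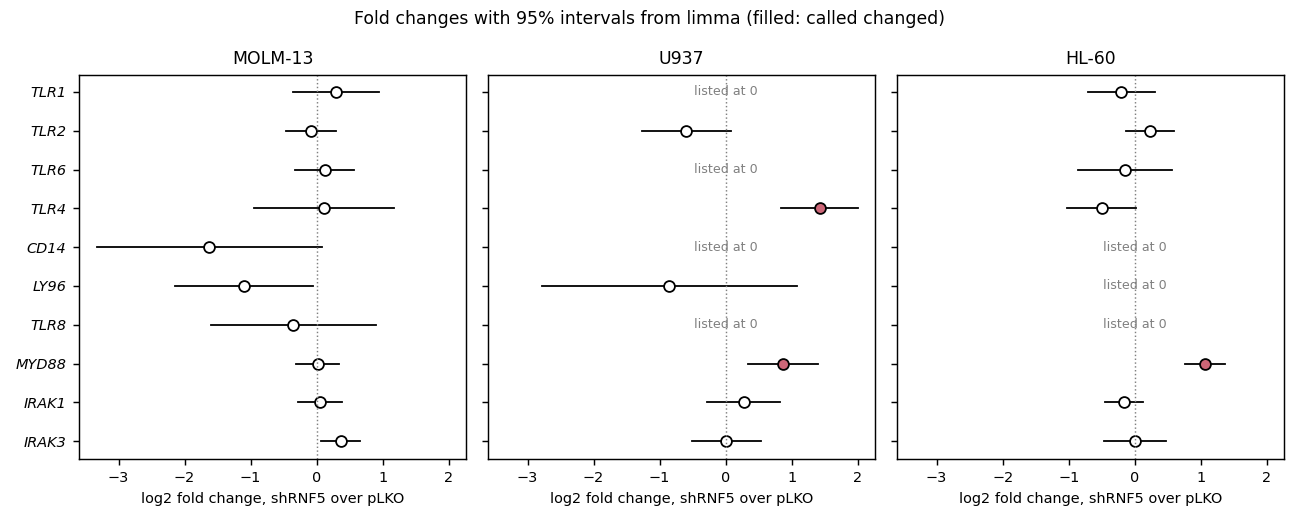
Log2 fold change of shRNF5 over pLKO (horizontal axis) for each gene in each line, with the limma 95% interval as a bar. Filled points mark the called changes, TLR4 (1.42) and MYD88 (0.87) in U937 and MYD88 (1.07) in HL-60, and genes listed at 0 in a line have no point.

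Counted over the genes with values, 0 of 10 were called in MOLM-13, where limma called 1.03% of 13026 genes higher and 1.01% lower. At an unadjusted limma p under 0.05, 2 of the 10 would pass in MOLM-13 (LY96 and IRAK3, limma adjusted p = 0.275 and 0.227). The share of all genes at that level was not counted, so this cannot be set against a background. In U937 2 of 6 were called, both higher, where 6.92% of all genes tested were. In HL-60 1 of 7 was called higher, near the 13.6% of all genes tested there. The constructs did not overlap for 3 of 10 genes in MOLM-13 (38.7% of all genes tested there), for 4 of 6 in U937 (59.2%) and for 1 of 7 in HL-60 (38.5%). The share among the genes was near the background in MOLM-13 and U937 and below it in HL-60. These shares rest on only 10, 6 and 7 genes.

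Whether the lines responded differently was tested for the 5 genes above 0 in all 3 lines (TLR2, TLR4, MYD88, IRAK1 and IRAK3), in 1 limma fit over the 15 libraries. The MYD88 response was smaller in MOLM-13 than in U937 (difference -0.85 ± 0.22 SE; limma adjusted p = 0.0312) and smaller than in HL-60 (difference -1.046 ± 0.20 SE; limma adjusted p = 0.0150). U937 and HL-60 were not shown to differ in MYD88, with a difference of -0.19 and a 95% interval of -0.63 to 0.24 (limma adjusted p = 0.503). These were 1 of the 5 genes in each of the first 2 comparisons, where the response differed for 15.4% and 8.82% of the 11072 genes tested. The MYD88 difference between MOLM-13 and U937 was lost without either MOLM-13 shRNF5 library, U937 pLKO replicate 2 or U937 shRNF5 replicate 1 (limma adjusted p = 0.105, 0.131, 0.112 and 0.141). The difference between MOLM-13 and HL-60 was lost without MOLM-13 shRNF5 replicate 1 (limma adjusted p = 0.133).

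The responses of TLR4 and TLR2 differed between U937 and HL-60. The TLR4 response was higher in U937 by 1.92 ± 0.51 (SE; 95% interval 0.84 to 3.0; limma adjusted p = 0.0125), and this held without each library in turn (limma adjusted p = 0.00368 to 0.0595). The TLR2 response was lower in U937 (difference -0.83 ± 0.26 SE; 95% interval -1.38 to -0.29; limma adjusted p = 0.0248), a call lost without U937 shRNF5 replicate 1 (limma adjusted p = 0.113). These 2 of 5 genes compare with 37.2% of the 11072 genes tested between these lines. For TLR4, MOLM-13 minus U937 gave -1.31 (95% interval -2.44 to -0.18; limma adjusted p = 0.131) and MOLM-13 minus HL-60 gave 0.61 (limma adjusted p = 0.476). The first of these was called without MOLM-13 pLKO replicate 1 or U937 pLKO replicate 3 (limma adjusted p = 0.050 and 0.0995). IRAK1 and IRAK3 differences ran from -0.22 to 0.43 and were not called in any pair, except IRAK1 between U937 and HL-60 without HL-60 shRNF5 replicate 1 (limma adjusted p = 0.0980).

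The lines were normalized separately by the authors, so levels across lines were set side by side after rescaling all libraries by median of ratios over 11054 genes, with no test. The pLKO level of TLR4 was lowest in MOLM-13 (mean 49.2 rescaled reads, range 28.4 to 81.5, n = 3), higher in U937 (mean 554, range 505 to 603, n = 2) and highest in HL-60 (mean 1015, range 790.3 to 1174, n = 3), and the ranges did not overlap. TLR2 had the reverse order, falling from 638 ± 72.7 (SD) in MOLM-13 to 428 ± 29.2 in U937 and then to 252 ± 25.9 in HL-60. TLR6 was at 226 ± 30.8 in MOLM-13 and 33.2 ± 8.50 in HL-60, and TLR1 at 117 ± 24.8 and 86.5 ± 8.30, where the ranges overlapped. MYD88 was similar in MOLM-13 (991 ± 53.7) and U937 (1044 ± 92.6), with overlapping ranges, and lower in HL-60 (376 in the mean). IRAK1 was highest in U937 (9858 in the mean), then HL-60 (5668 ± 535) and MOLM-13 (3313 in the mean). IRAK3 was highest in MOLM-13 (5250 ± 305), while HL-60 (2602 ± 662) and U937 (1845 ± 173) overlapped. MOLM-13 was thus the line with all 10 genes above 0 and the lowest TLR4 of the 3.

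**Figure D3:**
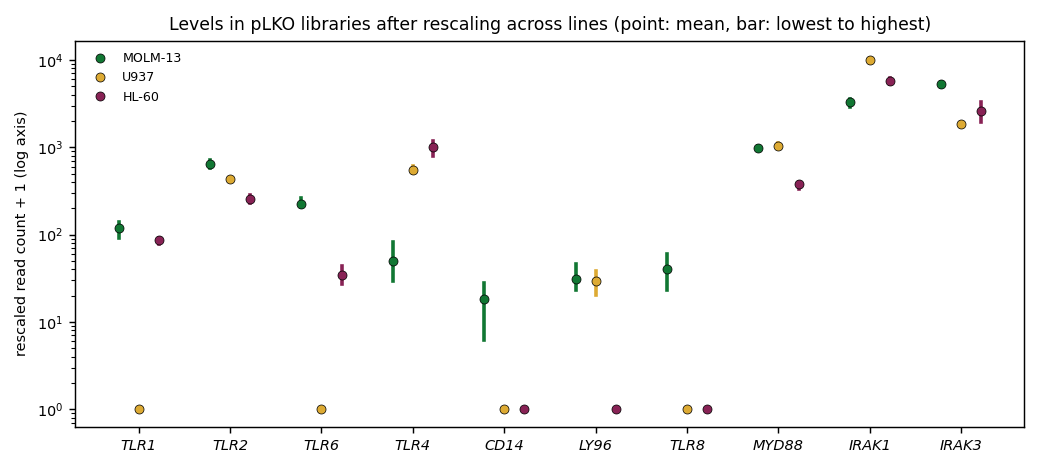
Rescaled read count + 1 in the pLKO libraries on a log axis, for each gene and line, with points at the mean and bars from the lowest to the highest library. TLR4 climbs from MOLM-13 (49.2) to HL-60 (1015) and TLR2 descends from 638 to 252, and points at 1 are genes listed at 0.

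Genes whose pattern over the 15 libraries was most like that of a member were ranked by Pearson r of log2(value + 1) among 11054 genes after each line's mean was removed. For MYD88 these were WSB2 (r = 0.952), EPHA1 (0.943) and PRRG4 (0.94). For TLR4 they were MTPN (r = 0.924), LGALS8 (0.908) and NEDD9 (0.901), and for TLR2 NEK3 (r = 0.969), ITGAE (0.958) and WDFY2 (0.942). For IRAK1 they were RELL1 (r = 0.925), P2RY2 (0.909) and PDXK (0.883), and for IRAK3 KIAA0430 (r = 0.904), ANKFY1 (0.896) and IGF1R (0.886). Each line holds both constructs, and in MOLM-13 depth differs with the construct. These correlations are descriptions, picked as the highest of many.

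Other genes of the pathway were taken from lists of 63 genes in 7 groups. RNF5-KD was accompanied by 1 rise and 1 fall among 53 tested in MOLM-13, 9 rises and 6 falls among 53 in U937, and 17 rises and 6 falls among 50 in HL-60. Over all genes tested the shares called higher and lower were 1.03% and 1.01% (MOLM-13), 6.92% and 8.74% (U937), and 13.6% and 12.3% (HL-60), so the falls in U937 and HL-60 were near the background. The median log2 fold change was 0.02, -0.04 and 0.06 in the 3 lines, against 0.01, 0.00 and 0.00 over all genes tested. In MOLM-13 the count was 0 without pLKO replicate 2 or pLKO replicate 3, in fits that called 1 and 41 genes in all (266 with all libraries). Without either shRNF5 library 1 library of that construct remains, which cannot show its own spread. In U937, 0 were called without pLKO replicate 2 or shRNF5 replicate 1 and 1 without shRNF5 replicate 3. In HL-60, 14 were called without pLKO replicate 3. Genes named below in addition to the largest changes were chosen after their values were seen.

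Of the 5 other receptors, TLR5, TLR7, TLR9 and TLR10 were listed at 0 in every library. TLR3, the endosomal sensor of double-stranded RNA, ranged from 0 to 26 with pLKO and was at 25 and 33 with shRNF5 in MOLM-13, which overlapped (limma adjusted p = 0.378). It was listed at 0 in U937 and overlapped in HL-60, where the log2 fold change was -0.18.

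Next to MYD88, the bridging adaptor TIRAP, which brings MYD88 to TLR2 and TLR4, rose in U937 from 45 and 70 to 137 and 164 (log2 fold change 1.40, limma adjusted p = 0.0751). IRAK2, a kinase of the same complex, fell in U937 by 1.18 on the log2 scale (limma adjusted p = 0.0778). IRAK4, the kinase that contacts MYD88 first, rose in HL-60 from 533 to 572 with pLKO to 709 to 813 with shRNF5 (0.47, limma adjusted p = 0.0254). The remaining adaptors tested in these lines were not called.

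In the relay to NF-kappaB, 2 of 12 genes tested rose and 1 fell in U937, and 1 of 13 rose and 2 fell in HL-60. Over all genes tested, 6.92% rose and 8.74% fell in U937, and 13.6% and 12.3% in HL-60. The relay counts were thus near the background. In U937 the TAK1 partner TAB1 fell from 1307 and 693 to 524 and 418 (-1.02, limma adjusted p = 0.0849), while UBE2N and the IKK kinase CHUK rose by 1.01 and 0.99. In HL-60 MAP3K7, which encodes TAK1, fell from 2494 to 2738 with pLKO to 1490 to 2119 with shRNF5 (-0.54, limma adjusted p = 0.0229). TRAF6 fell there as well (-0.43, limma adjusted p = 0.0830), and IKBKG, the regulatory IKK subunit, rose from 138 to 146 to 193 to 216 (0.54, limma adjusted p = 0.0382). In MOLM-13 the called gene of the relay was PELI2, a ubiquitin ligase of the Pellino family, which fell from 863 to 1071 with pLKO to 550 and 561 with shRNF5 (-0.78, limma adjusted p = 0.0853).

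In the TRIF and interferon arm, 2 of 7 rose and 1 fell in U937, and 4 rose and 1 fell in HL-60. The shares over all genes tested were 6.92% and 8.74% in U937 and 13.6% and 12.3% in HL-60. The kinase RIPK1 rose in both lines, by 1.10 in U937 and 0.87 in HL-60 (limma adjusted p = 0.0434 and 0.00300). IKBKE, an IKK-related kinase, rose in U937 from 233 and 270 to 750 and 658 (1.48, limma adjusted p = 0.0223), whereas the transcription factor IRF3 fell there by 0.98. In HL-60 IRF3 was called higher by 0.41 (limma adjusted p = 0.0952). Its values there overlapped, at 789 to 939 with pLKO and 886 to 1331 with shRNF5. The interferon regulatory factors IRF7 and IRF5 rose in HL-60, IRF7 from 71 to 111 with pLKO to 179 to 394 with shRNF5 (1.38, limma adjusted p = 0.0104) and IRF5 from 239 to 382 to 554 to 761 (1.00, limma adjusted p = 0.00751). TRAF3, an adaptor ligase of this arm, fell in HL-60 from 883 to 1116 to 633 to 725 (-0.59, limma adjusted p = 0.0135).

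Among chaperones and accessory proteins, the scavenger receptor CD36, a partner of TLR2 and TLR6, rose in MOLM-13 and U937. It went from 563 to 811 with pLKO to 1344 and 1950 with shRNF5 in MOLM-13 (log2 fold change 1.2, limma adjusted p = 0.0744). In U937 it went from 854 and 1063 to 9966 and 6610 (3.09, limma adjusted p = 0.00172). CXorf21, a partner of the endosomal transporter SLC15A4, fell in U937 from 1333 and 1125 to 229 and 193 (-2.54, limma adjusted p = 0.00360) and rose in HL-60 from 186 to 199 to 240 to 369 (0.67, limma adjusted p = 0.0282). LY86, which pairs with the TLR4 relative CD180, fell in U937 from 174 and 136 to 53 and 58 (-1.46, limma adjusted p = 0.0605). The TLR chaperones HSP90B1 and CNPY3 rose in HL-60 by 0.65 and 0.63 (limma adjusted p = 0.0201 and 0.0178). There 4 of 9 genes of the group rose and 1 fell, against 13.6% and 12.3% of all genes tested.

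Of the 7 negative regulators, 4 rose and 1 fell in HL-60 and 1 fell in U937. Over all genes tested, 13.6% rose and 12.3% fell in HL-60, and 8.74% fell in U937. SIGIRR, a receptor that dampens TLR and interleukin-1 signaling, fell in U937 from 966 and 630 to 221 and 369 (-1.45, limma adjusted p = 0.0387) and rose in HL-60 from 211 to 372 to 396 to 648 (0.63, limma adjusted p = 0.0974). TOLLIP, CYLD and TNIP1 rose in HL-60 by 0.59, 0.55 and 0.43, while TNFAIP3, the deubiquitinase that NF-kappaB induces, fell by 0.49.

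Targets that the pathway can induce rose in part. TNF rose in U937 from 18 and 16 to 229 and 113 (log2 fold change 3.17, limma adjusted p = 0.0179), and IL8, a neutrophil chemokine, from 112 and 82 to 1110 and 451 (2.87, limma adjusted p = 0.0144). PTGS2, the inducible cyclooxygenase, rose in U937 (2.80, limma adjusted p = 0.0274) and in HL-60, there from 19 to 25 with pLKO to 53 to 78 with shRNF5 (1.48, limma adjusted p = 0.00687). IL1B and NFKBIA rose in HL-60 by 0.92 and 1.00. IL8 fell in HL-60 from 247 to 409 to 107 to 230 (-0.92, limma adjusted p = 0.0413). In all, 3 of 11 targets rose in U937 (6.92% of all genes tested), and 3 of 8 rose and 1 fell in HL-60 (13.6% and 12.3%). In MOLM-13 0 of 9 were called, where 1.03% of all genes tested rose and 1.01% fell.

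**Figure D4:**
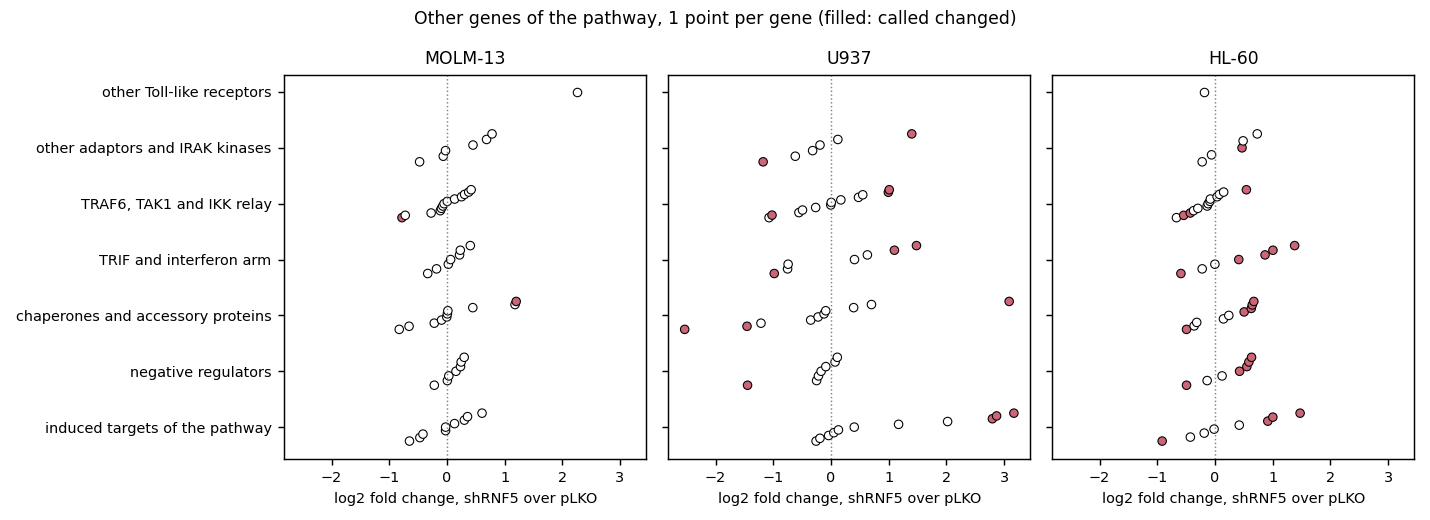
Log2 fold change of shRNF5 over pLKO (horizontal axis) for the other genes of the pathway in each line, 1 point per gene and 1 row per group, filled where called. MOLM-13 has 2 called genes (CD36 and PELI2), U937 the widest spread, from -2.54 (CXorf21) to 3.17 (TNF), and HL-60 the most calls (23).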

How the data were processed

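Per the labels and the methods, single-end reads were aligned to hg19, counted per gene with featureCounts and normalized with edgeR within each line. The labels name a kit primed at transcript 3′ ends and the methods a poly(A) kit, so levels were not compared between genes. The deposited value is a score in the sense that the authors multiplied each library's read counts by a factor and rounded the products. Libraries were grouped by label. limma 3.58.1 in R 4.3.3 was run on log2(value + 1), moderated by empirical Bayes with a trend of variance on mean, per line and in one fit over 15 libraries for differences between lines. Procedures were tested on simulated data. The gaps between the low values of a library gave its depth (Python 3.11.15), no pair of libraries was identical (0 pairs), and no counting interval is given because the values are not counts. Positions are from GENCODE on GRCh37. The replicate numbers of the labels were checked for pairing. The genes, gene lists and tests were chosen with earlier results of these data known. Named were all 10 genes, RNF5, the 3 genes most alike each member, and from the pathway lists the 3 largest called rises and falls per line and the largest called change per list. Further pathway genes were named after their values were seen. Alternatives were the pseudocount (0.5, 10), a minimum mean of 10, another scaling, one fit, a replicate block, no trend, an adjusted p under 0.05, a length correction and leaving out each library.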

Additional observations from a re-analysis of the deposited data

Results flagged for a closer look

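The responses of 3 genes to RNF5-KD differed between lines in a limma test of the difference itself, which singled them out here. Between U937 and HL-60, 2 of the 5 genes tested differed, against 37.2% of 11072 genes. Between MOLM-13 and U937 1 of 5 differed (15.4% of all genes tested), and between MOLM-13 and HL-60 1 of 5 (8.82%). The TLR4 response was higher in U937 than in HL-60 by 1.92 on the log2 scale (1.42 against -0.50), and the TLR2 response was lower (difference -0.83, from -0.60 against 0.24). For MYD88 the response in MOLM-13 (0.02) differed from that in U937 (0.87) by -0.85 and from that in HL-60 (1.07) by -1.046. The TLR4 and TLR2 responses in U937 were measured on 2 libraries of each construct.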

How the results depend on the processing

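Values under other settings are given as counts of called genes or log2 fold changes, and the cause of a change was not tested. One fit over all libraries called 1 of the 10 genes in MOLM-13 (0 in the line's own fit), CD14, which was listed at 0 in the other lines. Among other pathway genes this fit called 1 in MOLM-13 (2 in its own fit), 19 in U937 (15 in its own fit) and 14 in HL-60 (23 in its own fit). Over all genes it called 555 of 14906 in MOLM-13 (266 of 13026 in its own fit). In HL-60 it called 2594 of 14906 (3251 of 12570 in its own fit). In U937 it called 3 of the 10 genes (2 in its own fit) and 4977 of 14906 genes in all (2062 of 13165 in its own fit). Without a mean-variance trend 0 pathway genes were called in MOLM-13, and in U937 1 of the 10 (2 with the trend) and 7 pathway genes (15 with the trend). At an adjusted p under 0.05 these counts were 0, 1 and 9. Over all genes, the fits without a trend called 55 in MOLM-13 and 475 in U937. At an adjusted p under 0.05 the counts over all genes were 39 and 824. A pseudocount of 10 gave 2 genes responding differently in MOLM-13 and U937 (1 with a pseudocount of 1). The length correction turned TLR4 in MOLM-13 to -0.16, MYD88 in MOLM-13 to -0.01 (-0.00529) and IRAK3 in U937 to -0.083. Over genes of known length, transcript length and log2 fold change had a Spearman rho of 0.26 (MOLM-13), 0.12 (U937) and -0.20 (HL-60). TLR4 has the longest annotated transcript of the 10 genes (12677 bases). The differences in response between lines were not refitted with the length correction, so the part of length in them was not tested.

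Leaving out 1 library at a time gave 0 to 3 pathway genes in MOLM-13, 0 to 2 of the 10 genes and 0 to 19 pathway genes in U937, and 1 to 2 of the 10 and 14 to 25 pathway genes in HL-60. Genes with differing responses numbered 0 to 2 (MOLM-13 against U937), 0 to 1 (MOLM-13 against HL-60) and 1 to 3 (U937 against HL-60). Some log2 fold changes that were not called changed sign. In MOLM-13 these were TLR1 (-0.0054 to 0.59), TLR2 (-0.15 to 0.00345), TLR4 (-0.21 to 0.53), TLR8 (-1.04 to 0.33), MYD88 (-0.033 to 0.047) and IRAK1 (-0.041 to 0.11). In U937 they were LY96 (-2.10 to 0.40) and IRAK3 (-0.077 to 0.093), in HL-60 TLR6 (-0.30 to 0.039) and IRAK3 (-0.21 to 0.19), and the IRAK3 difference of U937 against HL-60 ranged from -0.18 to 0.22. None of these was called with all libraries.

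Whether replicate numbers pair the samples was not settled. By the numbers in the sample titles, used here, same-number correlations of deviations were -0.13 and -0.45 in MOLM-13 and 0.39, 0.12 and -0.05 in HL-60. Other names of the 2 MOLM-13 shRNF5 libraries number them 2 and 3, which would give 0.45 and 0.27. The deviations of these 2 libraries from their own mean are equal and opposite. Each control thus correlates with them at opposite signs, so the signs in MOLM-13 cannot settle the pairing. In HL-60, differing numbers gave -0.44 to 0.30. U937 shares 1 number only, so no block was possible there. With the replicate block by title number, 5 pathway genes were called in MOLM-13 and 2 of the 10 genes in HL-60. Over all genes it called 738 of 13026 in MOLM-13 (266 without the block) and 3580 of 12570 in HL-60 (3251 without). With the block, MYD88 and IRAK1 in MOLM-13 turned to -0.033 and -0.041. A fit with no filter could not be fitted, because genes at 0 in every library have no variance. Depth limits genes with few reads, such as CD14, LY96 and TLR8, with 4 to 60 estimated reads per library where they were above 0, and TLR4 in the MOLM-13 controls, with 20 to 42.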
